A study of Saccharomyces cerevisiae with 10 samples.

Results

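The genes of arginine synthesis and breakdown were examined across 5 budding yeast strains that carry changes in the histone acetyltransferase complex NuA4. The 8 members were every measured gene among ARG1, ARG2, ARG3, ARG4, ARG8, CPA1, CAR1 and CAR2, out of 6377 features on the arrays. Of these, 6 act in synthesis and 2 in breakdown. They were chosen by measured values, because ARG3 has the highest increase of the group in the strains with truncated Epl1, so the values of the truncations against tagged Epl1 are a description and carry no test. In those values ARG3, ARG8 and CPA1 were higher in both truncations, CAR1 was lower, and ARG2 and ARG4 differed from tagged Epl1 by 0.25 or less on the log2 scale. CAR2 was higher by 0.23 in Epl1 1:380 and 0.38 in Epl1 1:485, and ARG1 differed by 0.44 and -0.0097. In the comparison that did not enter the choice, the eaf1 deletion against Eaf1 1:982, ARG3 was the 1 member that passed both limits.

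Arginine is made from glutamate. The first steps run in mitochondria on acetylated intermediates and yield ornithine, which is exported to the cytosol, joined there to carbamoyl phosphate to give citrulline, and then turned into arginine. The breakdown route opens with arginase, which splits arginine into urea and ornithine. In budding yeast both routes answer to arginine: a complex of Arg80, Arg81, Arg82 and Mcm1 represses several synthesis genes and activates the breakdown genes when arginine is present, Gcn4 activates synthesis genes when amino acids are scarce, and CPA1 is further controlled through a short reading frame in the leader of its messenger RNA.

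The strains were an eaf1 deletion, 2 strains with FLAG-tagged Epl1 labelled as truncated to residues 1:380 and 1:485, an HA-tagged strain with the label Eaf1 1:982, and a strain with FLAG-tagged Epl1 and no truncation. Eaf1 is the platform subunit of NuA4, and Epl1 holds the catalytic subunit Esa1 in the complex. The titles of the deletion arrays also carry the HA tag, which their source label lacks. Eaf1 1:982 is labelled a C-terminal truncation, but EAF1 has 982 codons, so the range covers the whole protein, and here that strain is set beside the deletion as the strain that has Eaf1. EAF1 itself was lower by 2.69 ± 0.11 (SE) on the log2 scale in the deletion than in Eaf1 1:982. Cultures grew to mid-log phase in plates, and every array held amplified RNA of 1 strain and of a reference pool shared by all arrays. Each strain had 2 arrays, replicate a with the strain in Cy3 and replicate b with the strain in Cy5. No label says whether a and b are separate cultures. If they are not, p-values reflect technical spread alone, and the small number of arrays limits the precision of every value. Epl1 1:380 replicate b carries another RNA isolation label than the other 9 strain samples, and both arrays of that strain are given for each member.

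Each value below is a log2 ratio of strain over pool, in the order replicate a, replicate b, so that 1 unit is a doubling and 0 is the level of the pool. A difference is 1 strain's mean minus another's, with the standard error of a linear model fitted with limma to all 6377 features. A call needed a p under 0.05 after Benjamini-Hochberg adjustment over all features, and a fold over 1.7. Every member was measured by 1 reporter with 2 spots. Both spots stood above background in all 80 combinations of member and array, and the dimmest strain signal, of ARG3, was 7.41 times its local background. The 2 spots differed by 0.041 at the median and by 0.16 at most, again for ARG3. The highest signal, as a mean of 2 spots, was 4563 units. Ratios cannot be compared between genes as amounts of RNA, and since each array was normalised on the bulk of its gene spots, a shift shared by all RNA does not show in them.

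**Figure D1:**
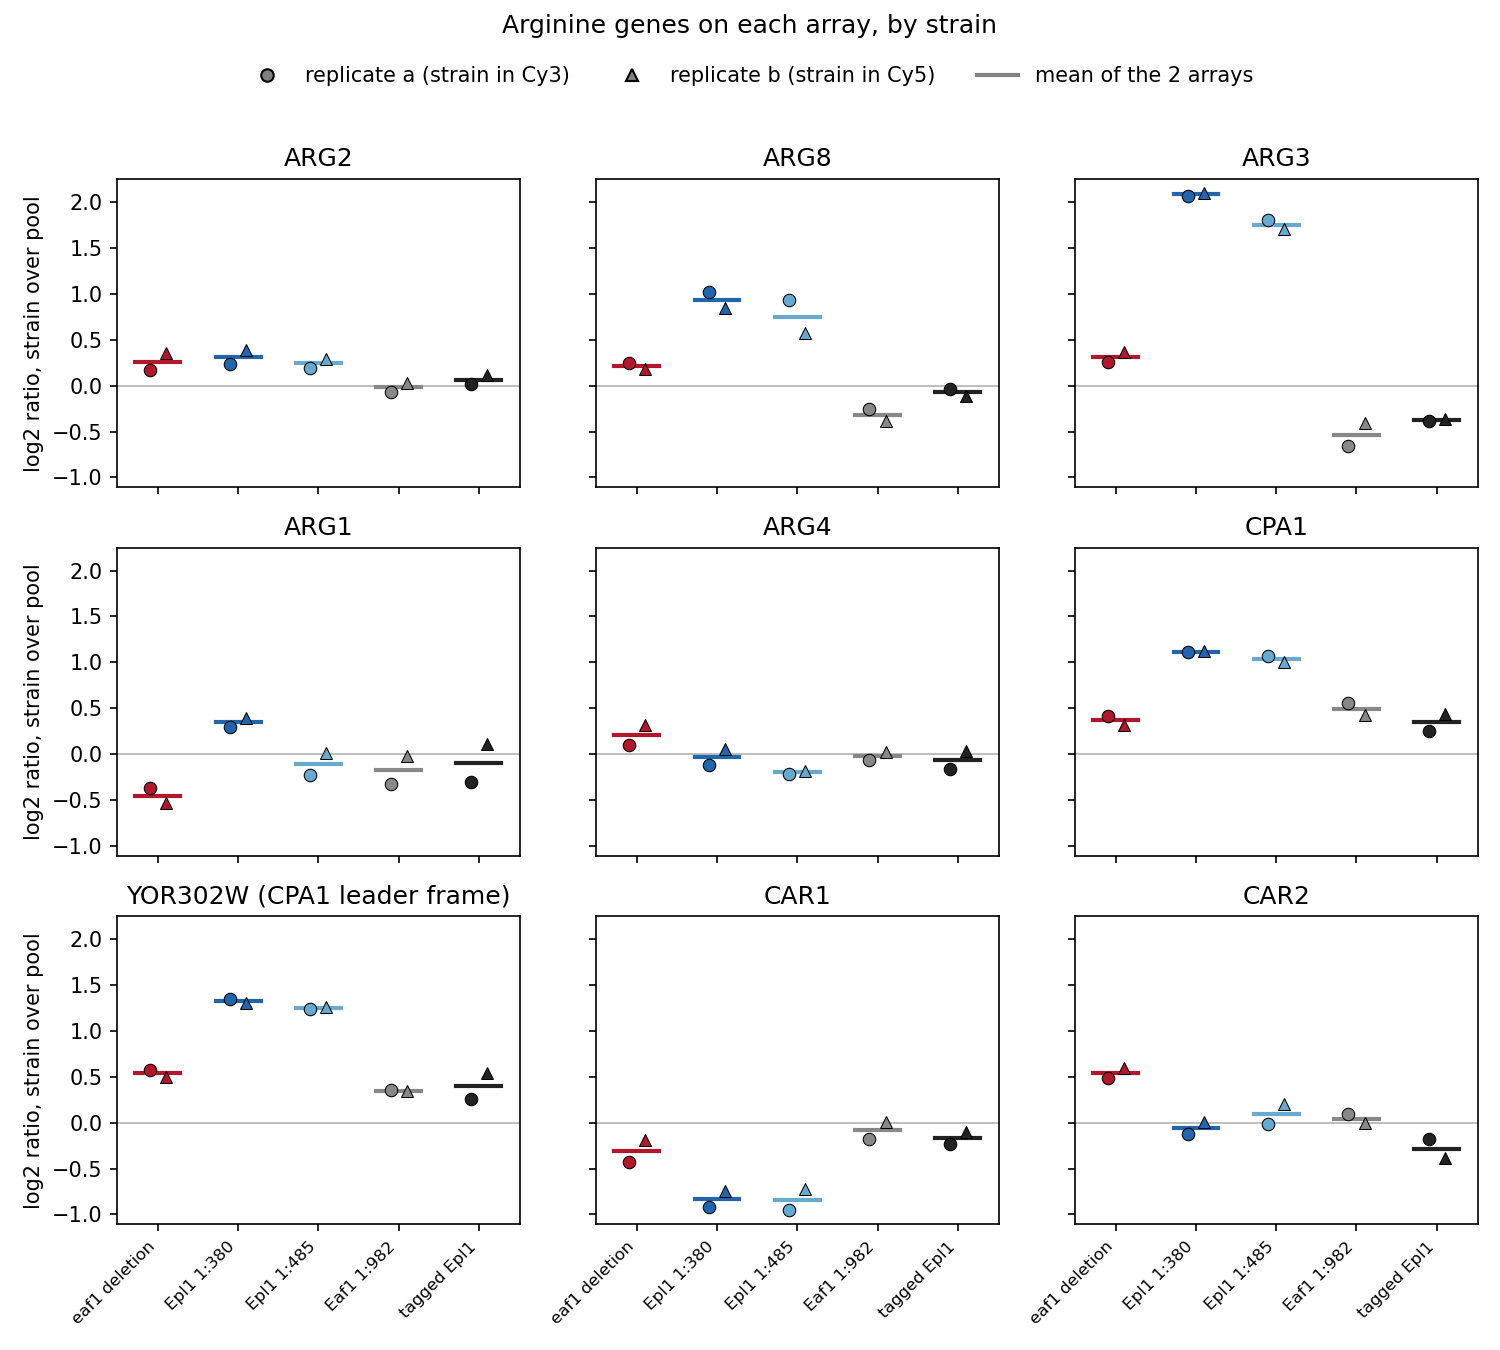
Log2 ratio of strain over pool (vertical axis) for the 8 arginine genes and for YOR302W, the reading frame in the CPA1 leader, in the 5 strains (horizontal axis). Circles are replicate a, triangles replicate b and bars the mean of the 2 arrays. ARG3 stands at 2.07 and 2.10 in Epl1 1:380 and at 1.80 and 1.70 in Epl1 1:485, while CAR1 is lowest in the same strains.

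The mitochondrial steps were measured through ARG2 and ARG8. ARG2, the acetylglutamate synthase that opens the pathway, had ratios of 0.17 and 0.36 in the eaf1 deletion, 0.23 and 0.39 in Epl1 1:380, 0.20 and 0.29 in Epl1 1:485, -0.068 and 0.028 in Eaf1 1:982, and 0.013 and 0.11 in tagged Epl1. The 3 mutants overlapped one another and lay above the other strains on all of their arrays, but the 5 means spanned only 0.33. The difference from tagged Epl1 was 0.25 ± 0.10 in Epl1 1:380 and 0.18 ± 0.10 in Epl1 1:485.

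ARG8, the acetylornithine aminotransferase of the mitochondrial branch, spread much more widely. Its ratios were 0.25 and 0.18 in the eaf1 deletion, 1.02 and 0.85 in Epl1 1:380, 0.93 and 0.58 in Epl1 1:485, -0.25 and -0.38 in Eaf1 1:982, and -0.032 and -0.11 in tagged Epl1. The truncations overlapped each other and were the highest, the deletion lay below them, and tagged Epl1 and Eaf1 1:982 followed without overlap. ARG8 was 2.0-fold higher in Epl1 1:380 than in tagged Epl1 (difference 1.0 ± 0.12) and 1.77-fold higher in Epl1 1:485 (0.82 ± 0.12). The value of Epl1 1:485 leaned on replicate a, since with replicate b alone the difference was 0.65 and below the fold limit.

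ARG3, the ornithine carbamoyltransferase that makes citrulline in the cytosol, had the widest range of the members. Its ratios were 0.26 and 0.36 in the eaf1 deletion, 2.07 and 2.10 in Epl1 1:380, 1.80 and 1.70 in Epl1 1:485, -0.66 and -0.41 in Eaf1 1:982, and -0.38 and -0.37 in tagged Epl1. From high to low the strains ran Epl1 1:380, Epl1 1:485, eaf1 deletion, tagged Epl1 and Eaf1 1:982, and no neighbours in that order overlapped. Against tagged Epl1, ARG3 was 5.50-fold higher in Epl1 1:380 (2.46 ± 0.10) and 4.37-fold higher in Epl1 1:485 (2.13 ± 0.10). As a description, since the rise of ARG3 chose the members, these differences ranked 5 and 6 among all 6377 features. They were of similar size on each dye orientation, at 2.45 for replicate a and 2.46 for replicate b in Epl1 1:380, and at 2.19 and 2.07 in Epl1 1:485.

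CPA1, the small subunit of the carbamoyl phosphate synthetase that feeds the ARG3 step, had ratios of 0.42 and 0.32 in the eaf1 deletion, 1.11 and 1.12 in Epl1 1:380, 1.07 and 1.0 in Epl1 1:485, 0.55 and 0.43 in Eaf1 1:982, and 0.26 and 0.44 in tagged Epl1. The truncations stood clear of the other 3 strains, among which tagged Epl1 overlapped both the deletion and Eaf1 1:982. The difference from tagged Epl1 was 0.77 ± 0.09 in Epl1 1:380, a fold of 1.70 that lies just past the limit, and 0.69 ± 0.09 in Epl1 1:485, a fold of 1.61 that lies just under it. In the deposited matrix of the authors' own log2 ratios, the same differences were 0.86 and 0.79, both past it.

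The reading frame in the CPA1 leader, YOR302W, encodes the arginine attenuator peptide, which stalls ribosomes ahead of CPA1 when arginine is plentiful. It has a reporter of its own, and it was looked up after the values of CPA1 were seen. Its ratios were 0.58 and 0.50 in the eaf1 deletion, 1.34 and 1.31 in Epl1 1:380, 1.24 and 1.26 in Epl1 1:485, 0.36 and 0.34 in Eaf1 1:982, and 0.26 and 0.54 in tagged Epl1. Like CPA1 it stood apart in the truncations, by 0.93 ± 0.10 in Epl1 1:380 and 0.85 ± 0.10 in Epl1 1:485 against tagged Epl1. Over the 10 arrays, Pearson's r between the reporters of YOR302W and CPA1 was 0.962, as a description of probes that lie on the same transcript.

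The genes of the last steps of synthesis were not higher in both truncations than in tagged Epl1. ARG1, the argininosuccinate synthetase, had ratios of -0.37 and -0.53 in the eaf1 deletion, 0.30 and 0.39 in Epl1 1:380, -0.23 and 0.013 in Epl1 1:485, -0.33 and -0.024 in Eaf1 1:982, and -0.30 and 0.11 in tagged Epl1. Both arrays of Epl1 1:380 lay above, and both of the deletion below, those of every other strain, while the remaining 3 strains overlapped. The difference from tagged Epl1 was 0.44 ± 0.16 in Epl1 1:380 and -0.0097 ± 0.16 in Epl1 1:485. The spread between the dye orientations was widest in tagged Epl1, and the first of these differences was 0.60 for replicate a and 0.29 for replicate b.

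ARG4, the argininosuccinate lyase that releases arginine, had ratios of 0.10 and 0.32 in the eaf1 deletion, -0.12 and 0.062 in Epl1 1:380, -0.22 and -0.18 in Epl1 1:485, -0.063 and 0.023 in Eaf1 1:982, and -0.17 and 0.035 in tagged Epl1. The deletion was highest and Epl1 1:485 lowest, with the other 3 strains overlapping between them. Against tagged Epl1, ARG4 differed by 0.036 ± 0.11 in Epl1 1:380 and by -0.13 ± 0.11 in Epl1 1:485. Neither ARG1 nor ARG4 had the order of strain means seen for ARG3. Of the other synthesis members, ARG8 had that order, but ARG2 and CPA1 did not.

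Of the breakdown genes, CAR1 encodes arginase. Its ratios were -0.43 and -0.19 in the eaf1 deletion, -0.91 and -0.74 in Epl1 1:380, -0.95 and -0.72 in Epl1 1:485, -0.18 and 0.012 in Eaf1 1:982, and -0.23 and -0.097 in tagged Epl1. Both truncations were lowest and overlapped each other. CAR1 was lower in Epl1 1:380 than in tagged Epl1 by 0.66 ± 0.13 (1.58-fold) and lower in Epl1 1:485 by 0.68 ± 0.13 (1.60-fold), both under the fold limit.

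CAR2, the ornithine aminotransferase that follows arginase, did not share that pattern. Its ratios were 0.49 and 0.59 in the eaf1 deletion, -0.12 and 0.0098 in Epl1 1:380, -0.013 and 0.20 in Epl1 1:485, 0.092 and -0.0039 in Eaf1 1:982, and -0.18 and -0.39 in tagged Epl1. The deletion was highest and tagged Epl1 lowest, and the other 3 strains overlapped between them. The difference from tagged Epl1 was 0.23 ± 0.11 in Epl1 1:380 and 0.38 ± 0.11 in Epl1 1:485, and it was larger for replicate b (0.40 and 0.59) than for replicate a (0.055 and 0.16).

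Counted together, 3 of the 8 members (ARG3, ARG8 and CPA1) exceeded both limits upward in Epl1 1:380 against tagged Epl1, beside 2.41% of all features, and 2 (ARG3 and ARG8) did so in Epl1 1:485, beside 1.85%. The selection of members rests on this contrast, so nothing is read from these counts. The median difference of the 8 was 0.35 in Epl1 1:380, against 0.0029 over all features, and 0.28 in Epl1 1:485, against -0.0011. Both comparisons use the same tagged Epl1 arrays.

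**Figure D2:**
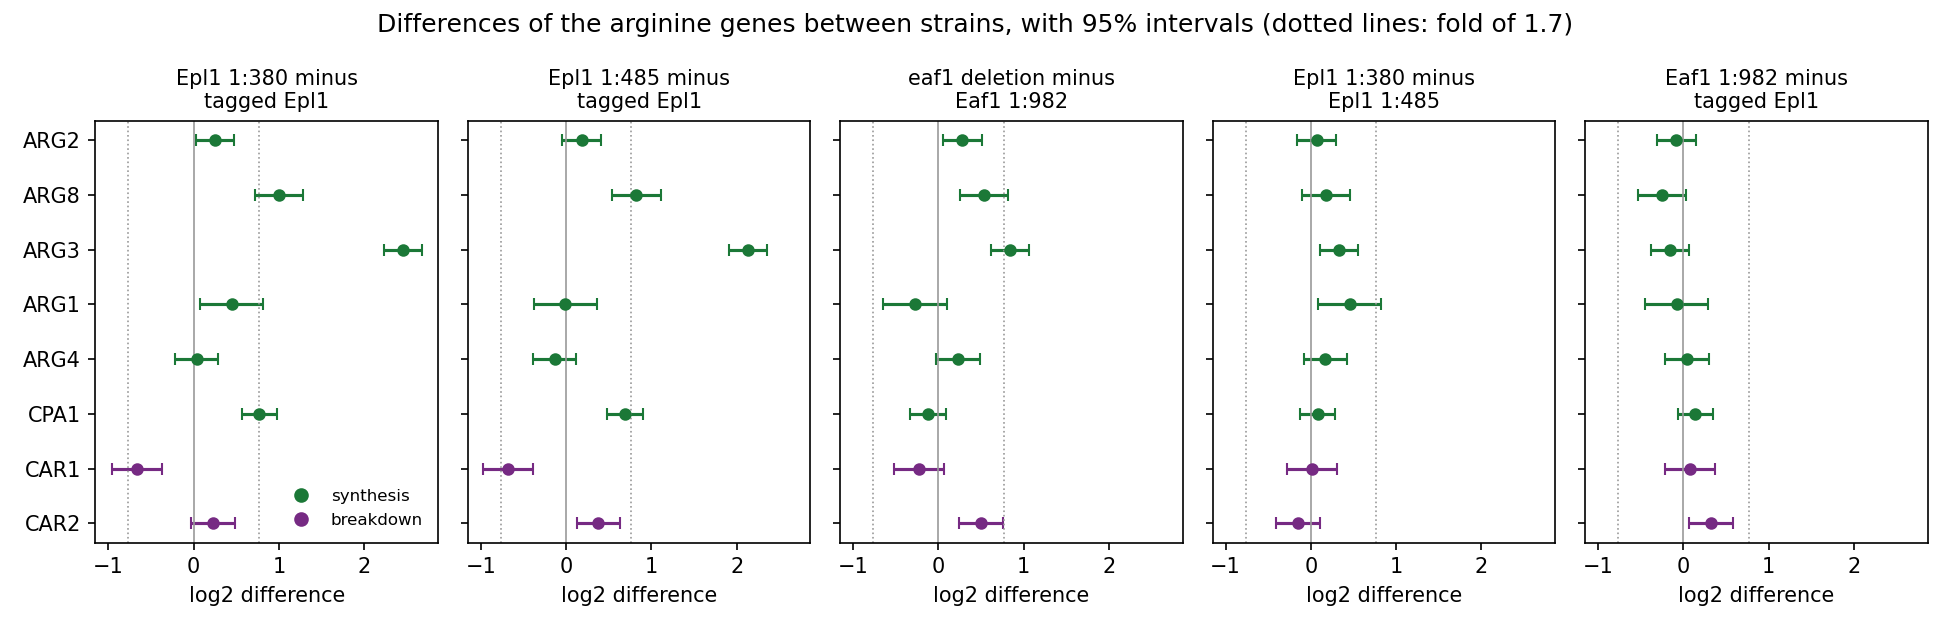
Differences of the 8 arginine genes in log2 ratio (horizontal axis) in 5 comparisons, with 95% intervals from the fit over all features. Dotted lines mark a fold of 1.7. The first 2 panels rest on values that chose the genes, and ARG3 lies at 2.46 and 2.13 there. In the deletion against Eaf1 1:982, ARG3 at 0.84 is the 1 gene past a dotted line.

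The eaf1 deletion against Eaf1 1:982 asks what loss of the NuA4 platform does to these genes, with arrays that did not enter the choice of members. ARG3 rose 1.79-fold in the deletion (0.84 ± 0.10, 95% interval 0.62 to 1.07, limma adjusted p 0.00155). Its arrays did not overlap between the strains, and the difference was 0.92 for replicate a and 0.77 for replicate b. It was the only member called, 1 of 8, while 2.56% of all features were called. With the replicate letter as a block, the adjusted p of ARG3 was 2.47e-05. Without Eaf1 1:982 replicate a the difference was 0.72, under the fold limit, with an adjusted p of 0.0122. The call was also lost with median centring in place of loess (0.81, adjusted p 0.0810) and with centring on added RNA (1.05, adjusted p 0.164), where none of the 6377 features was called.

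ARG8 and CAR2 passed the p limit but not the fold limit in the deletion. ARG8 was 1.45-fold higher (0.54 ± 0.12, limma adjusted p 0.0296), and CAR2 was 1.41-fold higher (0.50 ± 0.11, limma adjusted p 0.0250). With ARG3 they make 3 of 8 members under an adjusted p of 0.05 at any fold, where 11.0% of all features were. The dye orientations were blocked as a check, and ARG2, ARG4 and CAR1 then passed the p limit too, with adjusted p of 0.00355, 0.0176 and 0.0111. That made 6 of 8 members, where 37.2% of all features passed in the blocked fit.

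The remaining members stayed within the p limit of the fit without the block. ARG2 differed by 0.28 ± 0.10 (limma adjusted p 0.114) and ARG4 by 0.23 ± 0.11 (limma adjusted p 0.241). ARG1 differed by -0.28 ± 0.16 (limma adjusted p 0.338), CPA1 by -0.12 ± 0.09 (limma adjusted p 0.467) and CAR1 by -0.23 ± 0.13 (limma adjusted p 0.317). In all 8 members the arrays of the deletion and of Eaf1 1:982 did not overlap, as in 53.7% of all features. In YOR302W the difference was 0.19 ± 0.10 (limma adjusted p 0.278), so the CPA1 leader and CPA1 itself had differences of opposite sign, neither of which passed the test. The median of the 8 members was 0.26, against 0.00046 over all features, with 5 of the 8 above 0.

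The 2 truncations were compared with each other by the same test. Their arrays entered the choice of members through ARG3, so the p-values, counts and ranks below are not independent of that choice. No member was called in Epl1 1:380 against Epl1 1:485 by limma, and none of the 6377 features was (0%). At an unadjusted p under 0.05 there were 2 of 8 members, ARG3 and ARG1, beside 0.910% of all features. ARG3 was 1.26-fold higher in Epl1 1:380 (0.33 ± 0.10, 95% interval 0.11 to 0.55), and ARG1 was 1.37-fold higher (0.45 ± 0.16, 95% interval 0.083 to 0.83), with limma adjusted p of 0.9997 for both. Ranked from the highest difference down, ARG1 was number 2 and ARG3 number 15 of 6377 features. With the replicate block, 4 members were under an unadjusted p of 0.05, beside 5.46% of features, and the adjusted p was 0.555 for both genes. All 6 synthesis members had a difference above 0, beside 54.3% of all features, and the differences of ARG2, ARG4, ARG8 and CPA1 lay between 0.069 and 0.18. Of the breakdown genes, CAR1 differed by 0.013 ± 0.13 and CAR2 by -0.15 ± 0.11.

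Eaf1 1:982 and tagged Epl1, the strains without a truncation of Epl1 or a deletion, were also set against each other. No member was called by limma, and no feature was (0%). At an unadjusted p under 0.05 there was 1 member of 8, CAR2, beside 0.847% of all features. CAR2 was higher in Eaf1 1:982 by 0.33 ± 0.11 (95% interval 0.072 to 0.58, limma adjusted p 0.9997), and its arrays did not overlap. With the replicate block ARG8 joined it, which made 2 of 8 members beside 4.33% of features. ARG8 was lower in Eaf1 1:982, with a difference of -0.25 ± 0.12 (95% interval -0.53 to 0.035). The other 6 members lay between -0.16 for ARG3 and 0.14 for CPA1. Differences in the deletion are therefore measured from a strain whose ARG3 and ARG8 values were the lowest of the 5.

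The deletion and the truncations were set side by side as a description, since the truncations chose the members. ARG3 was 3.05-fold lower in the deletion than in the mean of both truncations, with a difference of -1.61 ± 0.08. It was the 1 member of 8 past a fold of 1.7 in either direction, beside 1.02% of all features (65 features, but 104 without eaf1 deletion replicate b and 130 with plain background subtraction). CPA1 was lower by 0.71 ± 0.08, ARG8 by 0.63 ± 0.11 and ARG1 by 0.57 ± 0.14, all without overlap of arrays. ARG2 was level, at -0.017 ± 0.09. ARG4 was higher in the deletion by 0.32 ± 0.10, CAR1 by 0.52 ± 0.11 and CAR2 by 0.52 ± 0.10. The deletion therefore had lower ratios than the truncations for 4 synthesis genes, and higher ratios for ARG4 and both breakdown genes.

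Of the other genes of the route, ARG7 and ORT1 were examined, and ARG5,6 was not analysed here. ARG7, the ornithine acetyltransferase that recycles the acetyl group, was higher in the deletion than in Eaf1 1:982 by 0.48 ± 0.08 (limma adjusted p 0.00756), under the fold limit. Against tagged Epl1 it differed by 0.28 ± 0.08 in Epl1 1:380 (limma adjusted p 0.0446) and by 0.18 ± 0.08 in Epl1 1:485 (limma adjusted p 0.165). ORT1, the carrier that exports ornithine, lay between 0.052 and 0.099 in these 3 comparisons. Neither was called in any of the 5 comparisons, and at an unadjusted p under 0.05 only ARG7 stood, in these 3. At that limit 25.6% of all features passed in the deletion, 32.0% in Epl1 1:380 and 30.1% in Epl1 1:485.

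Of the 6 regulators of arginine and amino acid control, none was called in any of the 5 comparisons. In the deletion against Eaf1 1:982, MCM1 was higher by 0.47 ± 0.09 (limma adjusted p 0.0172), under the fold limit. GCN4 was 0.47 ± 0.19 (limma adjusted p 0.176), and ARG80, ARG81, ARG82 and UME6 lay between -0.12 and 0.076. In the truncations against tagged Epl1, ARG80 was lower, by 0.61 ± 0.11 in Epl1 1:380 (limma adjusted p 0.00905) and by 0.43 ± 0.11 in Epl1 1:485 (limma adjusted p 0.0383). GCN4 there was 0.39 ± 0.19 and 0.30 ± 0.19, UME6 was -0.21 ± 0.07 and -0.28 ± 0.07 (limma adjusted p 0.0652 and 0.0290), and ARG81, ARG82 and MCM1 lay between -0.11 and 0.080. At an unadjusted p under 0.05 there were 2 of the 6 in each of these 3 comparisons, beside 25.6% of all features in the deletion, 32.0% in Epl1 1:380 and 30.1% in Epl1 1:485, and 0 of the 6 in the other comparisons. RNA of a regulator does not measure its activity, and GCN4 in particular is controlled in translation.

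Uptake and the neighbouring routes gave no call against Eaf1 1:982 or tagged Epl1 either. None of the 4 permeases (CAN1, ALP1, GAP1 and AGP1), the 11 genes of proline and polyamine metabolism or the 12 measured genes of urea use, ammonium assimilation and nitrogen control was called in the deletion against Eaf1 1:982 or in either truncation against tagged Epl1. At an unadjusted p under 0.05 the permeases gave 1, 1 and 2 genes in the deletion, Epl1 1:380 and Epl1 1:485, the proline and polyamine genes 5 in each, and the urea and nitrogen genes 0, 3 and 2, where 25.6%, 32.0% and 30.1% of all features passed in the same order. CAN1, the arginine permease, differed by 0.24 ± 0.12 in the deletion, -0.0023 ± 0.12 in Epl1 1:380 and -0.061 ± 0.12 in Epl1 1:485. In the deletion against both truncations, again as a description, 1 of the 12 urea and nitrogen genes was past a fold of 1.7. That gene was GDH1, higher in the deletion by 0.82, where 1.02% of all features were past that fold in either direction.

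The other amino acid genes known as Gcn4 targets lay on the other side of 0 from ARG3, ARG8 and CPA1. Of 24 such genes, 22 had a negative difference in Epl1 1:380 against tagged Epl1 and 24 in Epl1 1:485, where 49.6% and 50.3% of all features did. The list's median was -0.28 in both, against 0.0029 and -0.0011 over all features. HIS4, of histidine synthesis, fell in both truncations, by 0.97 ± 0.12 in Epl1 1:380 (limma adjusted p 0.00151) and by 1.03 ± 0.12 in Epl1 1:485 (limma adjusted p 0.00157). ASN1, an asparagine synthetase, fell in Epl1 1:485 by 0.87 ± 0.17 (limma adjusted p 0.0123). In the deletion against Eaf1 1:982, 14 of the 24 were negative, where 49.9% of all features were, and their median was -0.085. None was called by limma, and 7 had an unadjusted p under 0.05, where 25.6% of all features did. HIS4 came closest there, with a difference of -0.77 ± 0.12 (limma adjusted p 0.00520) that lies just under the fold limit.

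**Figure D3:**
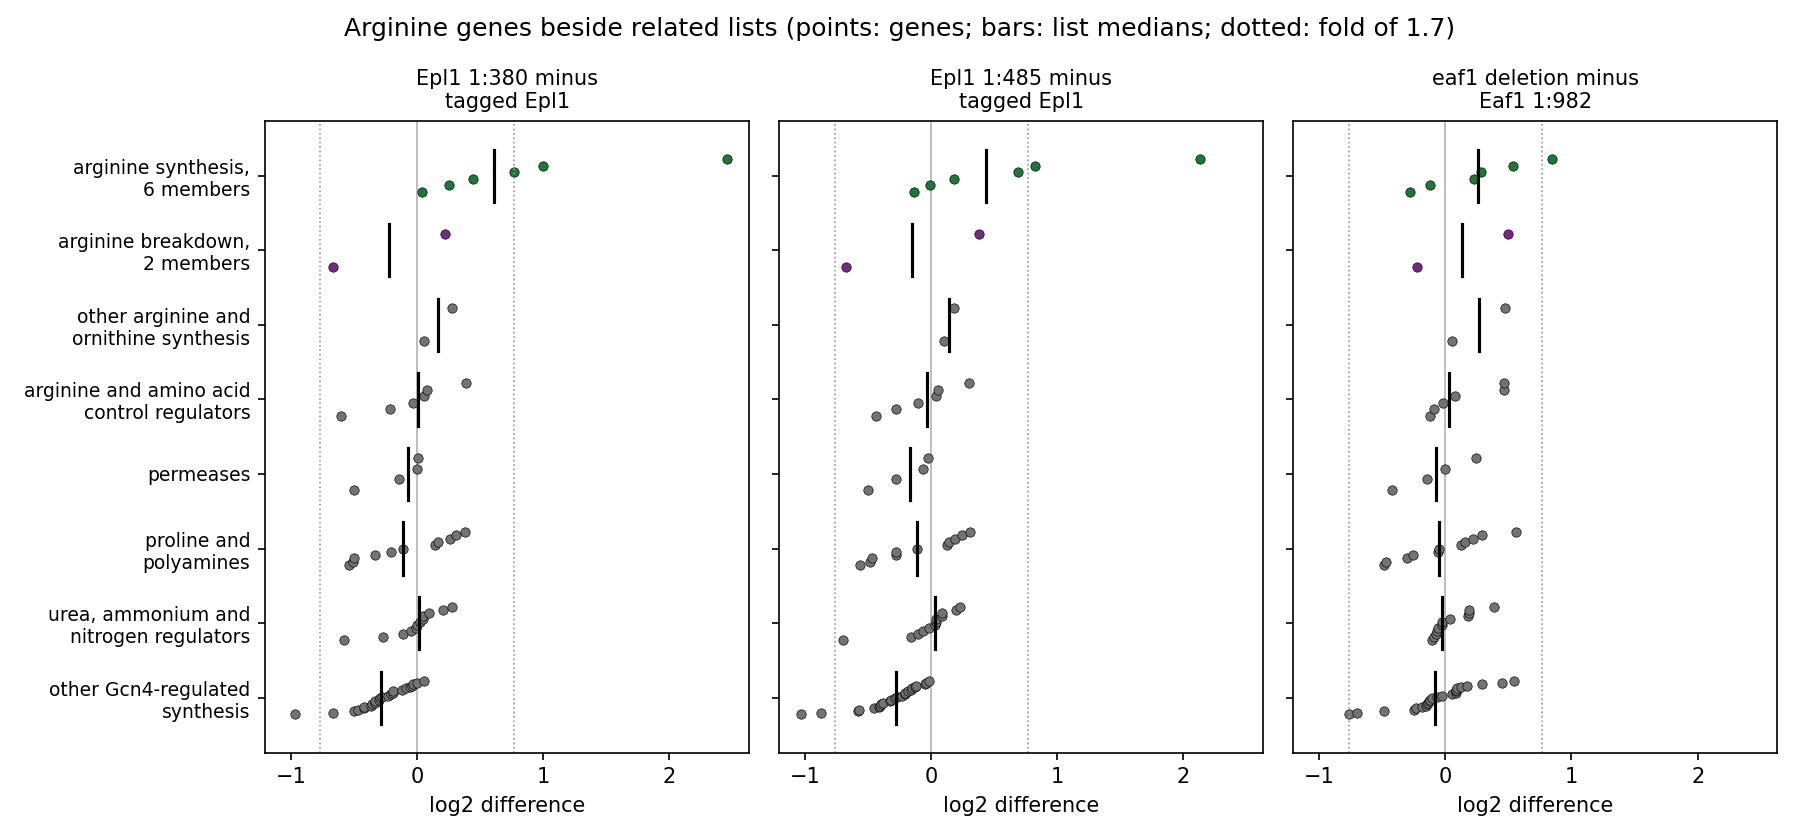
Differences in log2 ratio (horizontal axis) of the arginine genes and of 6 related lists (rows) in 3 comparisons, with 1 point a gene, a bar at each list's median and dotted lines at a fold of 1.7. The synthesis members reach 2.46 and 2.13 in the truncations, while the other Gcn4-regulated genes have a median of -0.28 in both.

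Genes beside the members on the chromosome were looked up as well, after the members' values were seen. SIP4, next to ARG3, differed from tagged Epl1 by 0.55 in Epl1 1:380 (limma adjusted p 0.0154) and by 0.50 in Epl1 1:485 (limma adjusted p 0.0243), and from Eaf1 1:982 by 0.50 in the deletion (limma adjusted p 0.0306), all under the fold limit. TRL1, on the other side of ARG3, differed by 0.21, 0.21 and 0.22 in the same comparisons, with no adjusted p under 0.05. Neither neighbour of ARG8 (PPM2 and CDC33) or of CAR1 (PEX25 and GDE1) was called or had an adjusted p under 0.05 in these comparisons. The same held for GPD2 and YOL057W (beside ARG1), PSF2 and YJL070C (ARG2), YSC83 (ARG4), ISW2 (CPA1), and DIF1 and LSM3 (CAR2). In the deletion against Eaf1 1:982, 11.0% of all features had a limma adjusted p under 0.05 at any fold. DED81, next to ARG4, differed from tagged Epl1 by -0.52 in Epl1 1:380 (limma adjusted p 0.0476). In Epl1 1:485 it differed by -0.56 (limma adjusted p 0.0412), and both values lay under the fold limit.

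Among the members, the ratios of ARG3 over the 10 arrays followed those of ARG8 (Pearson's r 0.969) and CPA1 (0.916) and ran against those of CAR1 (-0.941). With CAR2 r was 0.044 and with ARG4 it was -0.277. All arrays share the pool and the 2 truncations set the range, so these values describe the arrays and carry no p.

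Among 152 named genes whose strain means spanned more than 1 unit, those most like ARG3 by Pearson's r over the 10 arrays were GSC2 (0.994), HSP26 (0.993), RNR3 (0.987), MCH2 (0.985), YLR112W (0.982) and SSA4 (0.981). They include GSC2, a subunit of cell wall glucan synthase, the chaperones HSP26 and SSA4, and RNR3, an inducible ribonucleotide reductase subunit. These genes were picked by r with ARG3, itself picked for its rise in the truncations, so their high values there follow from the choice. ARG8, with an r of 0.969, was not in that group. The strain means of the other members spanned less than 1 unit, so those genes could not enter it. For ARG8 they were RNR3 (0.982), YJR149W (0.976), PAI3 (0.975), ARG3 (0.969), YLR112W (0.966) and FMP16 (0.966).

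**Figure D4:**
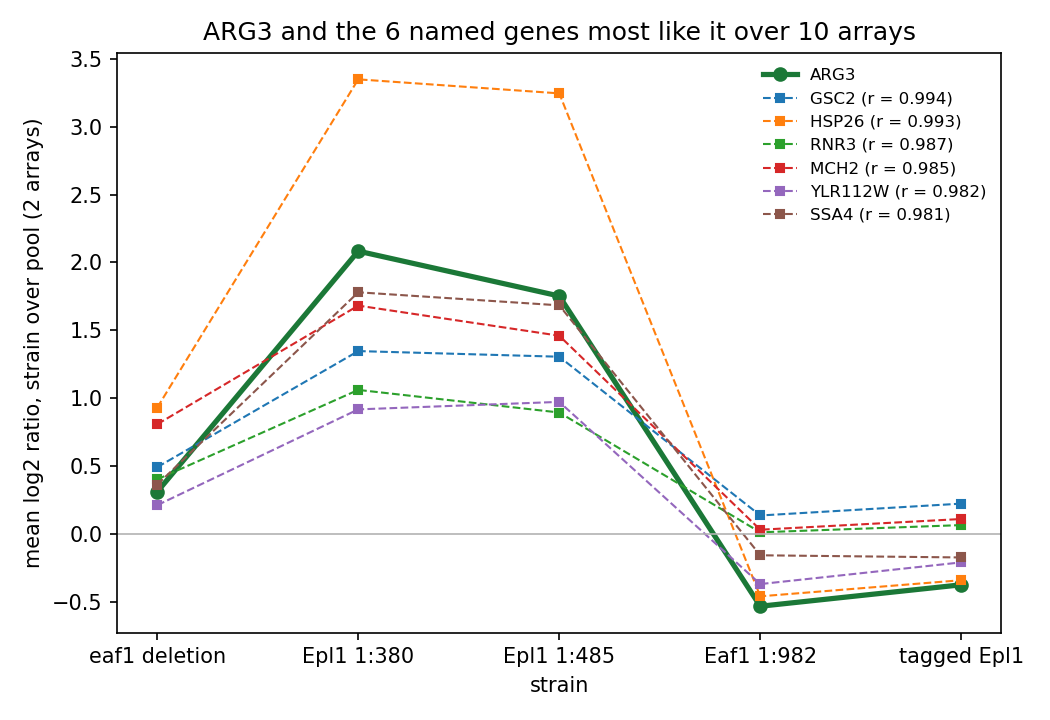
Mean log2 ratio of strain over pool (vertical axis, 2 arrays a strain) of ARG3, solid line, and of the 6 named genes with the highest Pearson's r with it, dashed lines, in the 5 strains (horizontal axis). Lines join strains only to guide the eye. Each gene is highest in the 2 truncations, and r runs from 0.981 to 0.994. Both follow from the choice of genes by r with ARG3, so nothing is read from them.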

How the data were processed

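Per the file headers, the authors' raw files give an intensity with local background for each spot and channel, and the deposited matrix gives Cy5 over Cy3 on a log2 scale, after print-tip loess and a dye bias correction by the authors. Intensities were corrected here with normexp (offset 50) and normalised by loess (span 0.3) on gene spots. Strain over pool ratios were averaged per gene and fitted with limma 3.58.1 in R 4.3.3, with 1 coefficient per strain and 5 residual degrees of freedom. Median signals were 674 to 1086 for Cy5 and 334 to 585 for Cy3. Deviations of same-lettered replicates correlated at 0.637 to 0.871 between strains. The letter is the dye orientation in the labels, so it was tried as a block.

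The members, lists and limits were chosen with earlier results of these data known. The rule named the members, EAF1 and EPL1, up to 4 called genes per list and comparison, and the 6 genes most like ARG3 or ARG8. YOR302W, the other neighbours and the uncalled list genes were named after their values were seen. EPL1 differed by 0.45 ± 0.14 between the deletion and Eaf1 1:982 (limma adjusted p 0.0735). Against tagged Epl1, EPL1 was higher by 0.41 in Epl1 1:380 and by 0.51 in Epl1 1:485 (limma adjusted p 0.0753 and 0.0400). In Eaf1 1:982 against tagged Epl1, EPL1 was higher by 0.65 and EAF1 by 0.51. The limma adjusted p there was 0.9997 for both genes, and 0.0104 with the replicate block. Names came from a table of assembly R64, and no sequence was used. Alternatives were other background corrections and normalisations, the deposited matrix, the block, a filter on dim features, other eBayes and call limits, only the groups compared, and leaving out each array. The limma fit and the call were tested on simulated data for the deletion against Eaf1 1:982, with independent noise on each array. The simulation did not cover normalisation or the deviations shared by same-lettered replicates. Figures used Python 3.11.15 and matplotlib 3.10.9.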

Additional observations from a re-analysis of the deposited data

Results flagged for a closer look

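CPA1 had differences of opposite sign in the 2 kinds of mutant. It differed by 0.77 in Epl1 1:380 and by 0.69 in Epl1 1:485 against tagged Epl1, and by -0.12 in the eaf1 deletion against Eaf1 1:982, with both arrays of each mutant on the side of its mean. The difference in the deletion did not pass the test (limma adjusted p 0.467), it was 0.00049 with centring on added RNA, and the reporter of YOR302W, on the same transcript, differed by 0.19 there. ARG1 differed by 0.44 in Epl1 1:380 but by -0.0097 in Epl1 1:485 against tagged Epl1, and by -0.28 in the deletion against Eaf1 1:982, which did not pass (limma adjusted p 0.338). ARG4 differed by -0.13 in Epl1 1:485 but by 0.036 in Epl1 1:380 against tagged Epl1, and by 0.23 in the deletion against Eaf1 1:982, which did not pass either (limma adjusted p 0.241). These differences of differences were not tested.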

How the results depend on the processing

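Over 21 alternatives, the count of members called in the eaf1 deletion against Eaf1 1:982 was 1, except 0 with median centring, 0 with centring on added RNA, and 0 to 1 when each array was left out. ARG3 differed by 0.81 with median centring (adjusted p 0.0810) and by 1.05 with added RNA (adjusted p 0.164), where the median of all features moved by 0.27. That median moved by 0.29 in Epl1 1:380 and by 0.20 in Epl1 1:485 against tagged Epl1. The count in Epl1 1:380 against tagged Epl1 was 3, but 4 with print-tip loess (with CAR1), 2 with median centring (without CPA1), 1 with added RNA, and 2 to 3 without 1 array. In Epl1 1:485 it was 2, but 4 with print-tip loess (with CPA1 and CAR1), 1 with median centring, 1 with added RNA, 1 with only the groups compared, and 1 to 3 without 1 array (1 without Epl1 1:485 replicate a). In the deletion against both truncations it was 1, but 2 with print-tip loess and 2 with the deposited matrix, which added CPA1. The replicate block changed no member's call, with ARG3 at 0.84 in the deletion. The comparisons between the truncations and between Eaf1 1:982 and tagged Epl1 had a count of 0 in every alternative run. The cause of these changes was not tested.

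Calls over all features were 163 in the deletion, but 252 with plain subtraction, 42 with median centring and 0 with added RNA. In Epl1 1:380 they were 223, but 322 with plain subtraction and 105 and 39 with those centrings. In Epl1 1:485 they were 162, but 252 with plain subtraction and 58 and 19 with the centrings. In the deletion against both truncations 65 features were past the fold, but 130 with plain subtraction and 104 without eaf1 deletion replicate b. Of 504 values of single members in the tested comparisons, 11 changed sign, none of them called. In Eaf1 1:982 against tagged Epl1, leaving out 1 array gave -0.28 to 0.13 for ARG1, -0.055 to 0.15 for ARG4 and -0.014 to 0.18 for CAR1, and ARG4 was -0.011 with added RNA. In Epl1 1:380 against Epl1 1:485, it gave -0.0092 to 0.15 for ARG2 and -0.10 to 0.13 for CAR1, and CAR1 was -0.013 with print-tip loess and -0.032 with the deposited matrix. CPA1 in the deletion was 0.00049 with added RNA. Of 472 values in the described comparisons, 12 changed sign, all of differences near 0: ARG1 in Epl1 1:485 against tagged Epl1 (up to 0.19), ARG4 in Epl1 1:380 against tagged Epl1 (down to -0.15) and ARG2 in the deletion against both truncations (up to 0.077). Signal over background did not limit the members.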
